A study of Mus musculus with 20 samples.

Results

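The acute exercise response of vehicle-treated mouse muscle was taken as the comparison of 5 gastrocnemius libraries collected 1 h after a 30 min treadmill run with 5 libraries from animals that did not run. These 10 libraries are part of a series of 20. All genes that passed a filter on low counts were members, which left 13560 of the 53311 rows of the count table. Every animal of the series carried the genotype label Cre+:iMSBmal1 fl/fl, that is, Cre together with floxed alleles of Bmal1, the gene of the core clock factor BMAL1 (symbol Arntl). The vehicle animals thus carried the same alleles as the knockout-labelled animals and differed from them by the treatment, vehicle or iMSBmal1KO in the labels. The resting groups were labelled Zt13, zeitgeber time counted in hours from lights on, and the exercised groups ZT13-1 Hour Post. These labels do not settle whether both were collected at the same hour. If they were not, time of day cannot be told apart from exercise. The labels give neither the strain, the sex nor the age of the animals, and they name neither the promoter that drives Cre nor the agent that induces the knockout. They also do not say that each library came from a separate animal, so the p-values measure the spread between these samples.

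A bout of running raises calcium, cyclic AMP, heat, oxidant production and circulating glucocorticoid in and around the working muscle. The first transcripts to respond are immediate early genes, whose products are mostly transcription factors (AP-1, EGR and NR4A families) and feedback regulators. Heat shock factor induces chaperones, metal-responsive transcription factor and the glucocorticoid receptor both act on metallothionein genes, and NRF2 induces antioxidant enzymes. The coactivator PGC-1 alpha, encoded by Ppargc1a, and fuel genes such as Pdk4 are known to respond later in recovery.

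Before the expression values, the promoters of 2 gene families are shown, NR4A and the metallothioneins. Nr4a2 and Mt2 were among the 3 largest rises that met the rule for named genes, and a second member of each family rose too. The same held for the heat shock genes Hspa1b and Hspa1a. Their windows held no match to the heat shock element searched below and are not printed. RefSeq promoter windows of GRCm38.p6, from 250 bases before to 50 bases after each annotated start, were matched by symbol to 9723 of the 13560 genes tested (12471 windows), to 64 of the 82 genes that rose (89 windows) and to 22 of the 27 that fell (27 windows). The core of the cAMP response element, TGACG, was searched on both strands, so that a match on the other strand reads CGTCA here. It was present in 30.4% of all windows, in 36% of those of rising genes and in 11.1% of those of falling genes. Windows with 4 or more matches made up 0.529% of all windows and 3.37% of those of rising genes. The latter share is 3 windows, of Nr4a1, Nr4a2 and Ell2, so it includes genes printed below. Nr4a3, also printed, was not called. The promoters of the 3 NR4A genes each held 4 matches before the start, which are in capitals in the 250 bases before the start.

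Nr4a1, chr15:101266596-101266845, plus strand: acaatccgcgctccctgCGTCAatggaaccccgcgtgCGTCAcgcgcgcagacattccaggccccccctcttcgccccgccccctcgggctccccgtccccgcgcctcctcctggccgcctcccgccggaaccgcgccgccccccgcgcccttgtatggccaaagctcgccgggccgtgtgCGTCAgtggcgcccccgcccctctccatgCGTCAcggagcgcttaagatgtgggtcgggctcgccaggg
Nr4a2, chr2:57124004-57124253, minus strand: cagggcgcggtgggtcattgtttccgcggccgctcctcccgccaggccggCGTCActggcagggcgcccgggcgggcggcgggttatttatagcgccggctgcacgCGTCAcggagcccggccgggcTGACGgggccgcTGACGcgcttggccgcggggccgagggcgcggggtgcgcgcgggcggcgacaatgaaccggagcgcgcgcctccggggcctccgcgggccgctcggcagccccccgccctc
Nr4a3, chr4:48045055-48045304, plus strand: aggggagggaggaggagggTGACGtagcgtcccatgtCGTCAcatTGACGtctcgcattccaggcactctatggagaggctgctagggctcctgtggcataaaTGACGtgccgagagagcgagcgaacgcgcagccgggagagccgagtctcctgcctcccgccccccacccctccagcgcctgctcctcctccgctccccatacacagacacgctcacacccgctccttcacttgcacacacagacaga

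The metal response element was searched as TGCNCNC with A or G at the fourth place, on both strands. It was present in 35.5% of all windows, in 43.8% of those of rising genes and in 22.2% of those of falling genes. The windows of the metallothionein genes held 3 matches for Mt1 and 4 for Mt2, and the matches before the start, 1 and 3, are in capitals. Over all windows 3.18% held 3 or more matches and 0.874% held 4 or more, and the windows of the called genes Csrp1, Rcc2 and Irf2bp2 held 3, 3 and 4.

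Mt1, chr8:94178839-94179088, plus strand: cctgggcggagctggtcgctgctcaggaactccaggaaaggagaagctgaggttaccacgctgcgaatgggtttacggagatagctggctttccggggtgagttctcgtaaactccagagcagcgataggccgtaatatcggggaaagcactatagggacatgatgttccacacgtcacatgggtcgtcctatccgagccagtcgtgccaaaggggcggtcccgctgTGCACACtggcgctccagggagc
Mt2, chr8:94172368-94172617, plus strand: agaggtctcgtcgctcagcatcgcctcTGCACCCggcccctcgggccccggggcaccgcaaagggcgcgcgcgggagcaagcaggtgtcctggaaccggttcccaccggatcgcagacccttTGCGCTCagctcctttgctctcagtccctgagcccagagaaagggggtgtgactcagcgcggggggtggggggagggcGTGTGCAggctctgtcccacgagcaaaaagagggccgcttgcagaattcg

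These sequences were chosen for printing after the matches had been seen. A match is a run of letters and not a measured binding site. The whole cAMP response element TGACGTCA, which contains the core, was present in 2.89% of all windows and in 4.49% of those of rising genes, and the E-box CACGTG in 9.81% and 12.4%. The CArG box, to which serum response factor binds, was present in 1.32% of all windows and 1.12% of those of rising genes, the NR4A element AAAGGTCA in 1.07% and 2.25%, and the D-box TTATGNAA in 1.89% and 1.12%. The heat shock element, searched as GAA and TTC in alternation with 3 units and 2 free places between them, was present in 0.545% of all windows, 3.37% of those of rising genes and 3.7% of those of falling genes (1 of 27). The 3 windows of rising genes belong to Chordc1 and Hsph1, and the windows of Hspa1a and Hspa1b held no match.

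At 1 h after the run, 109 of 13560 genes differed from rest at an adjusted p under 0.05 (edgeR quasi-likelihood test, Benjamini-Hochberg adjustment), which is 0.804% of the genes tested. Of these, 82 rose (0.605%) and 27 fell (0.199%). The median log2 fold change was 0.96 among rises and -0.93 among falls, and 39 rises and 13 falls were of at least 1. Over all genes tested the median log2 fold change was 2.59e-05 and the median SE 0.169, and 50.01% had positive values. The shares of 0.605% for rises and 0.199% for falls are those beside which every list below is to be read. The pathway lists were chosen with earlier results of these data known, so their counts are not independent support. At an unadjusted p under 0.05 there were 1209 genes, 640 higher and 569 lower, or 8.92% of those tested. The ranges of log2 CPM (CPM: counts per library total of 1000000, scaled by TMM) of both groups did not overlap for 276 genes, 2.04% of those tested, and 89 of the 109 called genes were among them. The genes that rose had a median of 15.01 CPM at rest, close to the 11.29 CPM of all genes tested. In bulk muscle, fewer cells of a type and less RNA per cell cannot be told apart.

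**Figure D1:**
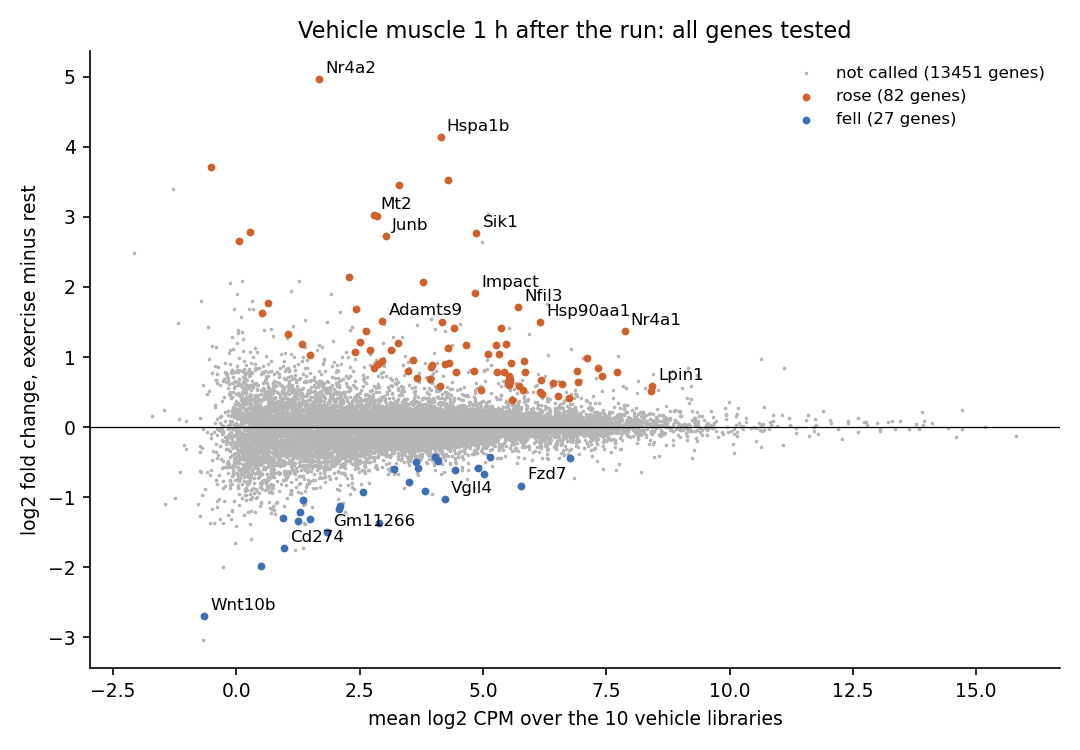
Each point is 1 gene tested; the horizontal axis is its mean log2 CPM over the 10 vehicle libraries and the vertical axis its log2 fold change, exercise minus rest. The 82 genes that rose (orange) reach 4.97 and the 27 that fell (blue) reach -2.70, the latter being Wnt10b with 0 to 3 counts per exercised library.

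Total counts ran from 8057859 to 10814630 in the 10 vehicle libraries, and mitochondrially encoded genes took 7.553% to 14.96% of them. The 6 general myofibre markers summed to 57570 to 77340 CPM in every vehicle library, so the defining genes of the labelled tissue were abundant. The libraries differed most in slow-fibre genes, in both groups: the 8 markers of slow fibres summed to 93.05 to 2673 CPM at rest and 48.36 to 2616 CPM after exercise, with resting replicate 5 and exercised replicates 2 and 4 far below the rest. None of the tested genes in 13 lists of fibre and cell type markers was called, beside 0.804% of all genes tested. The lists cover myofibre, slow and fast fibre, blood, fat, nerve, endothelium, smooth muscle, fibroblast, macrophage, neutrophil, lymphocyte and satellite cell. Of 5 markers each, 0 neutrophil, 1 lymphocyte and 3 nerve genes were tested. At that share few or no calls would arise in lists this short, so their absence does not show an unchanged cell composition. With the mean log2 CPM of the slow-fibre markers as a covariate, 248 genes were called (1.83% of those tested), 183 higher and 65 lower, and all 109 calls were kept. Without the 3 libraries low in slow-fibre genes, an alternative chosen after seeing the data, 14 genes were called with 4 against 3 libraries. Of these 14, 13 were among the 109, and all 109 kept their direction, with a median ratio of 0.911 between the log2 fold changes without and with these libraries. Leaving out 1 library at a time gave 52 to 135 calls, and 44 of the 109 genes kept their call in each of the 10 fits.

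**Figure D2:**
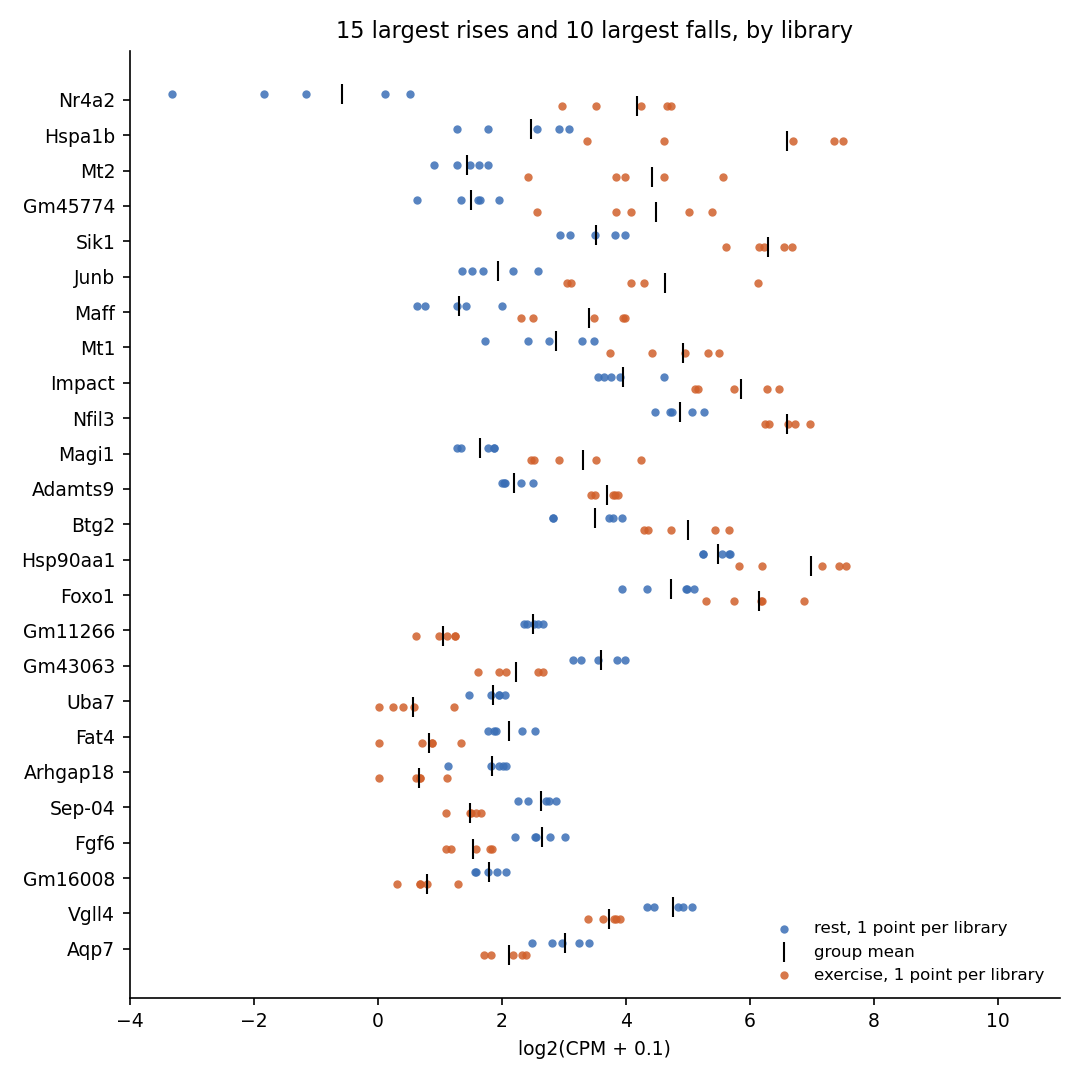
Values by library on a log2(CPM + 0.1) scale for the 15 largest rises and 10 largest falls that met the naming rule; each point is 1 library (blue rest, orange exercise) and each bar the log2 of the mean CPM of a group plus 0.1. The groups of these 25 genes do not overlap, which the rule required, while the exercised values of Hspa1b and Junb are spread far more than those of Adamts9 or Nfil3.

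The NR4A family of orphan nuclear receptors had the largest single rise. Nr4a2 stood at 0.348, 0.179, 0.981, 0 and 1.33 CPM in resting replicates 1 to 5 and at 26.5, 11.4, 25.2, 18.98 and 7.78 CPM in exercised replicates 1 to 5. It was nearly silent at rest, with 0 to 12 counts per library. Every exercised library was above every resting one, as the naming rule required (log2 fold change 4.97 with SE of 0.55, adjusted p 9.15e-05). Without the 3 libraries low in slow-fibre genes the value was 5.71 (adjusted p 0.00195), and without resting replicate 5 alone the log2 fold change of Nr4a2 in vehicle was 5.58.

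Nr4a1 was already abundant at rest, at 163, 112, 283, 96.8 and 109.6 CPM, with replicate 3 well above the others. After exercise it stood at 374, 451, 374, 485 and 290.1 CPM, and the lowest exercised library was just above the highest resting one (log2 fold change 1.37 with SE of 0.25, adjusted p 0.00921). Its call was kept in each fit without 1 library and lost without the 3 libraries low in slow-fibre genes (1.08, adjusted p 0.238). Nr4a3, the third member, stood at 17.98, 6.27, 74.2, 1.23 and 4.22 CPM at rest and 199, 70.8, 221, 88.98 and 66.3 CPM after exercise. Resting replicate 3 was high for this gene too and overlapped the exercised group, and the difference did not pass the test (log2 fold change 2.65 with SE of 0.84, adjusted p 0.235). Without that library it did, with an adjusted p of 0.0231. Thus 2 of the 3 members rose, and the fitted values of all 3 were positive.

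AP-1 is a dimer of FOS and JUN proteins. The list of 10 AP-1, ATF and MAF genes had 4 that rose, beside 0.605% of all genes tested, and none that fell. The median log2 fold change of the list was 1.20. Junb stood at 5.92, 3.14, 4.41, 2.46 and 2.78 CPM at rest and 8.21, 19.6, 16.9, 70.3 and 8.62 CPM after exercise. Every exercised library was above the resting ones, as the naming rule required, and replicate 4 was more than 3 times as high as any other (log2 fold change 2.72 with SE of 0.51, adjusted p 0.01496). The call was lost in 3 of the 10 fits without 1 library (adjusted p of up to 0.0606, without resting replicate 2), and without exercised replicate 4 the log2 fold change of Junb in vehicle was 1.83, with an adjusted p of 0.00163. Without the 3 libraries low in slow-fibre genes it was 1.49 (adjusted p 0.0364). An exon of Junb overlaps Prdx2 on the opposite strand, so reads of both may mix if strand was not used.

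Fosb, a FOS family member, had 2 to 4 counts in each resting library and 16 to 46 in each exercised one. These are 0.366 ± 0.119 and 2.54 ± 1.42 CPM (SD, n = 5 each, log2 fold change 2.78 with SE of 0.50, adjusted p 0.00588). In knockout-labelled muscle Fosb stood at 0.384 ± 0.219 CPM at rest and 0.459 ± 0.276 CPM after exercise. It thus passed the filter on low counts only through the exercised vehicle libraries. Its call, 1 of the 4 of the list, is therefore a description and not support. Fosl2, another member of the FOS family, stood at 17.1, 12.99, 15.9, 12.4 and 10.9 CPM at rest and 27.2, 35.3, 29.97, 74.96 and 17.8 CPM after exercise. Exercised replicate 4 was again highest (log2 fold change 1.42 with SE of 0.28, adjusted p 0.0173). The call was lost in 3 of the 10 fits without 1 library (adjusted p of up to 0.0653, without resting replicate 5), and without the libraries low in slow-fibre genes the value was 0.77. Maff, a small MAF protein without a transactivation domain of its own, went from 2.38 ± 0.9901 to 10.5 ± 5.19 CPM (log2 fold change 2.14 with SE of 0.49, adjusted p 0.0455), and its call was lost in 8 of the 10 fits without 1 library (adjusted p of up to 0.144, without resting replicate 5). The classical pair of the complex was not called: Fos had a log2 fold change of 1.50 (adjusted p 0.419) at 0.555 to 12.7 CPM, and Jun stood at 93.8 ± 8.79 CPM at rest and 93.7 ± 25.1 CPM after exercise (adjusted p 0.999). Atf3 (0.99, adjusted p 0.741) ranged from 2.22 to 17.3 CPM at rest and from 3.84 to 33.3 CPM after exercise and was not called either. In the 10 fits without 1 library, 1 to 4 members of the list were called.

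In the list of EGR, KLF and IER genes, further immediate early and zinc finger factors, 1 of the 14 tested rose, namely Klf15. The others included Csrnp1 (1.64, adjusted p 0.148), Klf10 (0.91, adjusted p 0.281) and Egr1 (0.65, adjusted p 0.673). Egr1 was low in every vehicle library, with 3.36, 2.96, 3.92, 1.35 and 1.55 CPM at rest and 3.49, 7.28, 5.78, 1.51 and 2.81 CPM after exercise, and Egr2 and Egr3 did not pass the filter on low counts. The median of the 14 was 0.486, and 11 had positive values.

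Of 18 genes of the cyclic AMP and CREB arm 3 rose, beside 0.605% of all genes tested. Sik1 encodes a salt-inducible kinase, a CREB target that phosphorylates the CRTC coactivators of CREB. It stood at 14.2, 11.3, 15.7, 8.49 and 7.55 CPM at rest and 70.8, 74.9, 94.1, 102 and 48.8 CPM after exercise. The lowest exercised library was more than 3 times the highest resting one (log2 fold change 2.77 with SE of 0.30, adjusted p 1.05e-04), and the call was kept in each fit without 1 library and without the libraries low in slow-fibre genes (adjusted p 0.0125).

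Pde4d, a phosphodiesterase that breaks down cyclic AMP, stood at 133, 111, 147, 93.9 and 120.5 CPM at rest and 180.4, 229.5, 235, 228 and 218 CPM after exercise (log2 fold change 0.85 with SE of 0.11, adjusted p 1.91e-04). The groups did not overlap, and exercised replicate 1 was the lowest of its group. Crem, which encodes CREB-like activators and the repressor ICER, rose from 6.02 ± 1.09 to 12.9 ± 5.0001 CPM (log2 fold change 1.10 with SE of 0.21, adjusted p 0.00935), with overlapping groups because exercised replicate 5 stood at 7.12 CPM and resting replicate 1 at 7.42 CPM. The number called stayed at 3 in each fit without 1 library. The kinases Sik2 (0.21) and Sik3 (-0.01), the coactivators Crtc1 (-0.02), Crtc2 (-0.10) and Crtc3 (-0.12) and Creb1 itself (0.30) were not called, with adjusted p-values from 0.466 to 0.9902.

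Of 26 genes tested in the list of feedback regulators 2 rose, beside 0.605% of all genes tested. Many of the list, such as the Dusp, Spry and Socs genes, switch off kinase and cytokine signals after a stimulus. The list also holds Btg, Gadd45 and Pim1 genes, and both rises were among these. Btg2, an antiproliferative factor that recruits mRNA deadenylases, went from 11.3 ± 3.97 to 32.1 ± 14.04 CPM (log2 fold change 1.50 with SE of 0.32, adjusted p 0.0336), and Pim1, a serine/threonine kinase, from 17.3 ± 6.32 to 38.8 ± 10.7 CPM (log2 fold change 1.17 with SE of 0.26, adjusted p 0.0363). Both groups were separate for both genes, which the naming rule required of Btg2, but the calls were lost in 6 and 7 of the 10 fits without 1 library. The phosphatases of MAP kinases Dusp1 (-0.06, adjusted p 0.972) and Dusp10 (-0.96, adjusted p 0.08704) and the NF-kappaB inhibitor Tnfaip3 (-1.11, adjusted p 0.0646) were not called. With the slow-fibre score as a covariate Dusp10 (-0.85, adjusted p 0.0273) and Tnfaip3 (-1.20, adjusted p 0.0165) passed. Socs3, a brake on cytokine receptors, had a fitted value of 2.09 (SE 1.13, adjusted p 0.645).

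**Figure D3:**
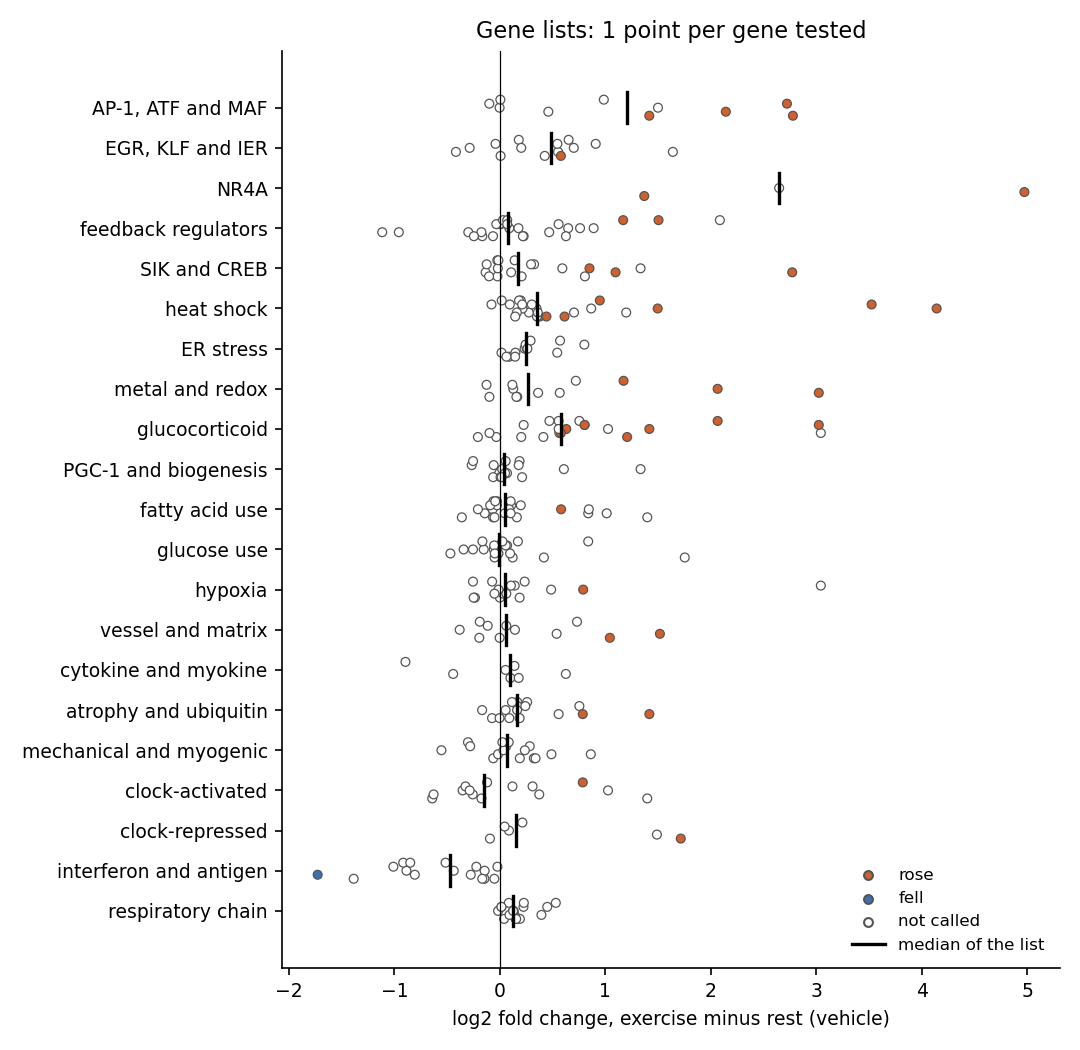
Log2 fold change in vehicle (horizontal axis) of each tested gene of the 21 lists, 1 point per gene, with the median of each list as a bar. Filled points were called. Of 10 AP-1 genes 4 rose and of 24 heat shock genes 7, beside 0.605% of all genes tested. All 16 interferon and antigen genes lie below 0, with 1 called. The lists were chosen with earlier results of these data known.

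Heat shock genes encode chaperones that refold proteins. Of the 24 tested, 7 rose, beside 0.605% of all genes tested, and none fell. Positive values were held by 23, beside 50.01% of all genes tested, and the median was 0.35. Hspa1b, an inducible HSP70 gene, stood at 8.35, 5.82, 7.48, 2.34 and 3.33 CPM at rest and 181, 10.2, 164, 104 and 24.5 CPM after exercise. Exercised replicates 1, 3 and 4 were above 100 CPM, while replicate 2 was just above the highest resting library and replicate 5 was at 24.5 CPM (log2 fold change 4.14 with SE of 0.84, adjusted p 0.0289). Its near-identical copy Hspa1a stood at 9.05, 6.99, 9.56, 4.55 and 5.88 CPM at rest and 152, 9.33, 139.7, 92.2 and 22.4 CPM after exercise (log2 fold change 3.52 with SE of 0.69, adjusted p 0.0229), where exercised replicate 2 lay within the resting range. Reads of the copies can be split or exchanged between them by the counting, and Gm20481, whose exons overlap Hspa1a on the opposite strand, was called too (3.45, adjusted p 0.0289), a call lost in 8 of the 10 fits without 1 library (adjusted p of up to 0.0948, without resting replicate 5).

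Partners of HSP70 and the HSP90 arm rose by less. Hsp90aa1, the inducible cytosolic HSP90, stood at 50.7, 46.7, 51.5, 37.6 and 37.9 CPM at rest and 173, 56.6, 187, 143 and 73.002 CPM after exercise (log2 fold change 1.50 with SE of 0.32, adjusted p 0.0336), with exercised replicates 2 and 5 lowest. Dnaja1, an HSP40 co-chaperone, went from 41.6 ± 5.08 to 80.2 ± 22.4 CPM (log2 fold change 0.95 with SE of 0.18, adjusted p 0.00968), and Hsph1, the nucleotide exchange factor HSP110, from 79.2 ± 11.4 to 121 ± 28.7 CPM (log2 fold change 0.61 with SE of 0.14, adjusted p 0.0326). Stip1, which links HSP70 to HSP90, rose by 0.44 and Chordc1, an HSP90 co-chaperone, by 0.38 on the log2 scale (adjusted p 0.0385 and 0.0454). Over the 7 genes, exercised replicate 2 was the lowest of its group for 4 and replicate 5 for 3, and neither was the highest for any. Hspa1b lost its call in 8 of the 10 fits without 1 library (adjusted p of up to 0.0954, without resting replicate 5). The calls were also lost for Hsp90aa1 in 8, Hsph1 in 7, Stip1 in 7, Chordc1 in 8 and Hspa1a in 6 of the 10 fits without 1 library, while Dnaja1 kept it in each. Between 1 and 8 members were called in those fits, 1 by limma-voom, 9 by DESeq2, 11 with the slow-fibre covariate and 1, Hsph1, without the libraries low in slow-fibre genes.

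The constitutive members were not called: Hspa8 stood at 899 ± 50.7 CPM at rest and 1148 ± 153 CPM after exercise (log2 fold change 0.35 with SE of 0.10, adjusted p 0.129), and the small heat shock genes Hspb1 (0.70), Cryab (0.30) and Hspb8 (0.15) had adjusted p-values from 0.384 to 0.927. Dnajb2, an HSP40 gene outside the list, rose by 0.47 (adjusted p 0.0151), a call lost in 3 of the 10 fits without 1 library (adjusted p of up to 0.07503, without resting replicate 2). Of 13 genes of the endoplasmic reticulum stress response, such as Hspa5 (0.24) and Atf4 (0.26), none was called at an adjusted p under 0.05, although all 13 fitted values were positive (12 with upper quartile or library size scaling).

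**Figure D4:**
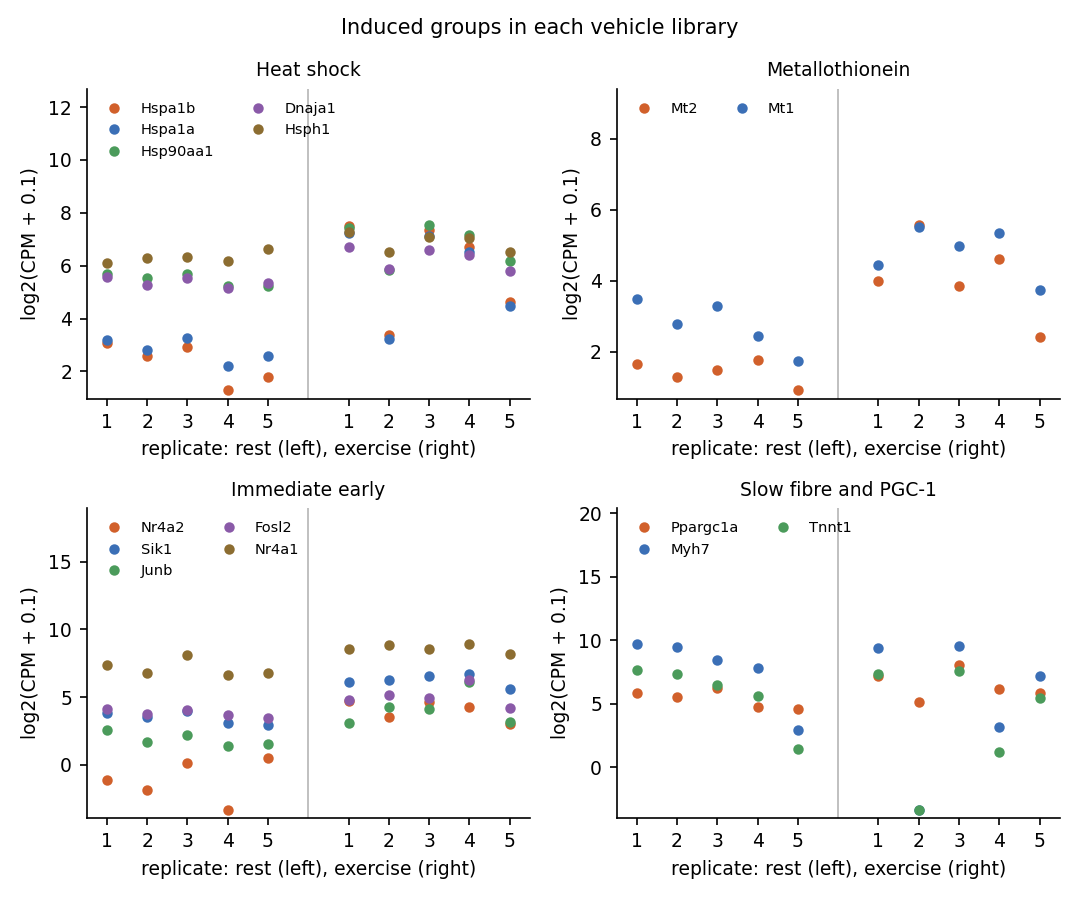
Each point is 1 gene in 1 vehicle library on a log2(CPM + 0.1) scale, with resting replicates 1 to 5 on the left and exercised replicates 1 to 5 on the right of each panel, for heat shock genes, metallothioneins, immediate early genes, and Ppargc1a with the slow-fibre genes Myh7 and Tnnt1. Exercised replicate 2 is lowest for Hspa1b and Hspa1a and highest for Mt1 and Mt2, and slow-fibre genes are low in resting replicate 5 and exercised replicates 2 and 4.

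Metallothioneins bind zinc and copper. Mt2 stood at 3.02, 2.33, 2.698, 3.32 and 1.78 CPM at rest and 15.7, 47.5, 14.3, 24.5 and 5.25 CPM after exercise. Every exercised library exceeded every resting one, as the naming rule required. Exercised replicate 2 was highest and replicate 5 lowest of that group (log2 fold change 3.02 with SE of 0.51, adjusted p 0.00803). Mt1 stood at 11.1, 6.72, 9.69, 5.29 and 3.22 CPM at rest and 21.4, 45.1, 31.1, 40.1 and 13.3 CPM after exercise, with the same libraries at the top and bottom of the exercised group (log2 fold change 2.06 with SE of 0.36, adjusted p 0.00814). Both genes kept their calls in each fit without 1 library, but not without the 3 libraries low in slow-fibre genes, where Mt2 had a log2 fold change of 2.04 and Mt1 one of 1.41. Gm45774, whose exons overlap Mt2 on the opposite strand, followed it closely, from 2.74 ± 0.872 to 22.3 ± 14.7 CPM (log2 fold change 3.02 with SE of 0.47, adjusted p 0.00407), and reads of the pair cannot be told apart without strand.

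Of the 12 genes of metal and antioxidant defence, 3 rose, Srxn1 and both metallothioneins. Over all genes tested the share was 0.605%. Srxn1, sulfiredoxin, which repairs oxidized peroxiredoxins and is an NRF2 target, stood at 28.4, 30.3, 30.3, 22.4 and 19.9 CPM at rest and 52.2, 55.9, 79.5, 79.7 and 29.2 CPM after exercise. Exercised replicate 5 lay within the resting range and the other 4 above it (log2 fold change 1.17 with SE of 0.23, adjusted p 0.01496). The call was lost in 3 of the 10 fits without 1 library (adjusted p of up to 0.0582, without resting replicate 5). Nfe2l2, which encodes NRF2, rose from 34.7 ± 6.28 to 65.2 ± 12.7 CPM (log2 fold change 0.91 with SE of 0.14, adjusted p 0.00179) and Bach1, a repressor that competes for the same elements, from 37.6 ± 4.68 to 56.8 ± 5.03 CPM (log2 fold change 0.60 with SE of 0.11, adjusted p 0.00921); both had separate groups and kept their calls in each fit without 1 library. Other NRF2 targets were not called, with values of -0.10 for Nqo1, -0.13 for Gclc, 0.17 for Gclm, 0.12 for Txnrd1 and 0.57 for Hmox1 and adjusted p-values from 0.308 to 0.909.

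The list of 21 glucocorticoid-responsive genes had 7 that rose, beside 0.605% of all genes tested, and none that fell. The list had a median of 0.58 and 18 positive values, beside 50.01% positive over all genes tested. It shares Mt1 and Mt2 with the metal list. Nr3c1, the glucocorticoid receptor itself, stood at 70.2, 72.3, 77.01, 62.7 and 63.8 CPM at rest and 80.7, 141, 107, 124 and 84.4 CPM after exercise (log2 fold change 0.63 with SE of 0.13, adjusted p 0.0154), with exercised replicate 1 just above the resting range and a call lost in 3 of the 10 fits without 1 library (adjusted p of up to 0.06103, without exercised replicate 4). Cdkn1a, the cell cycle inhibitor p21, stood at 4.41, 7.17, 6.74, 6.77 and 6.44 CPM at rest and 12.8, 13.8, 13.8, 17.7 and 14.9 CPM after exercise. The groups were far apart, and resting replicate 1 stood below the other resting libraries (log2 fold change 1.21 with SE of 0.20, adjusted p 0.00407). Cebpb, a bZIP factor, went from 92.01 ± 9.601 to 161 ± 30.1 CPM (log2 fold change 0.80 with SE of 0.17, adjusted p 0.0219), and the overlapping gene Tmem189 was also called (0.67, adjusted p 0.0171). Cebpb lost its call in 5 of the 10 fits without 1 library (adjusted p of up to 0.08199, without resting replicate 1) and Tmem189 in 3.

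Foxo1 encodes a transcription factor of the atrophy and fasting programmes. It stood at 34.3, 31.4, 31.8, 15.3 and 20.1 CPM at rest and 39.1, 73.2, 72.7, 117 and 53.5 CPM after exercise, with exercised replicate 4 highest (log2 fold change 1.42 with SE of 0.29, adjusted p 0.0287), and the call was lost in 6 of the 10 fits without 1 library (adjusted p of up to 0.0944, without resting replicate 5). Klf15, a regulator of amino acid and lipid use, went from 43.3 ± 5.32 to 64.7 ± 11.1 CPM (log2 fold change 0.58 with SE of 0.14, adjusted p 0.0397), with overlapping groups and a call lost in 8 of the 10 fits without 1 library (adjusted p of up to 0.141, without exercised replicate 3). The growth inhibitor Ddit4 (REDD1) was not called despite a fitted value of 3.04 (SE 0.70, adjusted p 0.0543): it stood at 7.66, 20.96, 12.5, 17.1 and 10.7 CPM at rest and 41.4, 247, 46.6, 159.5 and 76.9 CPM after exercise. Its groups did not overlap, and without exercised replicate 1 its adjusted p was 0.0469. The classical targets Fkbp5 (0.56, adjusted p 0.4805), Tsc22d3 (0.56, adjusted p 0.404) and Per1 (1.03, adjusted p 0.1601) were not called. In the fits without 1 library 3 to 7 members of the list were called, and none without the libraries low in slow-fibre genes.

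Of 16 genes of atrophy and protein breakdown, 2 rose, Foxo1 and Usp2, beside 0.605% of all genes tested. The muscle ubiquitin ligases Trim63 (MuRF1; 0.75, adjusted p 0.0904) and Fbxo32 (atrogin-1; 0.56, adjusted p 0.1698) did not pass.

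Among genes of fuel use, 1 of 23 fatty acid genes and none of 20 glucose genes was called at an adjusted p under 0.05. Lpin1, a phosphatidate phosphatase that also coactivates PPAR signalling, stood at 263, 275, 296, 298 and 287 CPM at rest and 429, 411, 486, 459 and 337 CPM after exercise. The groups were separate (log2 fold change 0.58 with SE of 0.09, adjusted p 0.00179, against a median SE of 0.178 over called genes), and the call was kept in each fit without 1 library. Plin4, a lipid droplet coat protein outside the list, went from 286 ± 18.1 to 407 ± 40.4 CPM (log2 fold change 0.51 with SE of 0.12, adjusted p 0.0445), a call lost in 9 of those fits.

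Pdk4, the kinase that shuts pyruvate dehydrogenase, stood at 432, 415, 449, 456 and 433 CPM at rest. After exercise it stood at 376, 834, 716, 1066 and 916 CPM, so that replicate 1 was below every resting library and the other 4 far above. The gene was not among the calls (log2 fold change 0.84 with SE of 0.24, adjusted p 0.1601), and without exercised replicate 1 the adjusted p was 0.0225. Irs2, the insulin receptor substrate, stood at 46.8, 37.4, 110.5, 19.7 and 25.5 CPM at rest and 210.4, 116, 215, 159 and 108 CPM after exercise, with resting replicate 3 at the level of the exercised group (log2 fold change 1.75 with SE of 0.47, adjusted p 0.119). Without that library its adjusted p was 0.0180, and with the slow-fibre covariate it was called (2.02, adjusted p 0.0141). The uncoupling protein genes Ucp2 (0.84, adjusted p 0.0575) and Ucp3 (1.01, adjusted p 0.112) did not pass. Glucose transporter Slc2a4 (-0.01) and hexokinase Hk2 (0.42) had adjusted p-values of 0.991 and 0.457.

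Of 16 genes of the PGC-1 and mitochondrial biogenesis list none was called, and 8 to 11 had positive values depending on the scaling. Ppargc1a stood at 58.4, 46.9, 75.2, 26.2 and 23.5 CPM at rest and 148, 35.96, 268, 71.8 and 56.98 CPM after exercise. Exercised replicates 1 and 3, both rich in slow-fibre genes, were highest, and replicates 2, 4 and 5 were within the resting range, of which 2 and 4 were the poorest in those genes (log2 fold change 1.33 with SE of 0.56, adjusted p 0.461). Replicate 5 was below replicate 4 for Ppargc1a, although its slow-fibre score was higher (5.92 against 2.868 log2 CPM). With the slow-fibre score as a covariate Ppargc1a was called (1.53, adjusted p 0.0256). The part of fibre type in these values was not tested. Gm42614, a noncoding gene inside an intron of Ppargc1a, had 1, 0, 3, 0 and 1 counts at rest and 23, 3, 28, 12 and 12 counts after exercise and was called (adjusted p 0.0182). The call was lost in 5 of the 10 fits without 1 library (adjusted p of up to 0.07503, without resting replicate 2). Counts this low leave its fold unmeasured, and reads of unspliced Ppargc1a could fall in it. Of 19 respiratory chain genes none was called, although 18 had positive values (16 with upper quartile or library size scaling), with a median of 0.13.

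Of 11 vessel and matrix genes tested, 2 rose, beside 0.605% of all genes tested. Adamts9, a secreted metalloproteinase that cleaves large proteoglycans, stood at 4.87, 5.55, 3.92, 4.06 and 3.997 CPM at rest and 13.8, 10.8, 14.2, 14.6 and 11.2 CPM after exercise. Both groups were tight, and the smallest exercised value was nearly 2 times the largest resting one (log2 fold change 1.52 with SE of 0.18, adjusted p 5.56e-05). It was among the calls kept without the libraries low in slow-fibre genes. Sdc4, a heparan sulfate proteoglycan of the cell surface, went from 24.4 ± 5.44 to 50.3 ± 13.7 CPM (log2 fold change 1.04 with SE of 0.22, adjusted p 0.0289), a call lost in 7 of the 10 fits without 1 library (adjusted p of up to 0.0954, without resting replicate 5).

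Of 16 hypoxia genes 1 rose, P4ha1, a prolyl hydroxylase of collagen synthesis (32.9 ± 5.67 to 56.9 ± 11.6 CPM; log2 fold change 0.79 with SE of 0.15, adjusted p 0.008299). Vegfa, the vascular growth factor, had a fitted value of 0.06 (SE 0.22, adjusted p 0.984) at 273 ± 71.9 CPM at rest and 285 ± 73.8 CPM after exercise. None of the 7 cytokine and myokine genes tested and none of the 16 mechanical and myogenic genes was called at an adjusted p under 0.05. Il6 and 10 other members of the cytokine list did not pass the filter on low counts.

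Both arms of the circadian clock were examined, with 14 genes that CLOCK and BMAL1 activate and 6 that the REV-ERB repressors act on. For these genes too, any difference in the hour of collection cannot be told apart from exercise. Nfil3, a repressor that acts on D-box elements, stood at 26.8, 38.4, 33.4, 26.1 and 22.2 CPM at rest and 79.1, 97.5, 106, 125 and 75.7 CPM after exercise. The smallest exercised value was about 2 times the largest resting one, and the adjusted p was the lowest of all genes tested (log2 fold change 1.72 with SE of 0.17, adjusted p 3.58e-05). Usp2, a deubiquitinase and clock output gene, went from 162 ± 19.4 to 279 ± 52.1 CPM (log2 fold change 0.79 with SE of 0.12, adjusted p 0.00179), with separate groups. In each list this was the single call. Per1 (1.03, adjusted p 0.1601), Ciart (1.40, adjusted p 0.0901) and Hlf (-0.64, adjusted p 0.0604) missed the threshold, and Dbp (-0.29), Nr1d1 (-0.26) and Arntl (0.21) had adjusted p-values of 0.239, 0.619 and 0.895. Noct, nocturnin, a rhythmic phosphatase outside the lists, went from 30.2 ± 9.39 to 52.3 ± 9.38 CPM (log2 fold change 0.79 with SE of 0.17, adjusted p 0.03198), with a call lost in 7 of the 10 fits without 1 library.

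Of the 82 rising genes 50 were in none of the 21 lists. Impact encodes an inhibitor of the amino acid sensor kinase GCN2. It stood at 11.6, 14.96, 24.5, 12.4 and 13.4 CPM at rest and 77.2, 34.5, 89.1, 53.4 and 35.98 CPM after exercise. The groups were separate, as the naming rule required (log2 fold change 1.92 with SE of 0.29, adjusted p 0.00402), and the call was kept in each fit without 1 library. Magi1, a scaffold protein of cell junctions, stood at 2.44, 2.33, 3.56, 3.32 and 3.55 CPM at rest and 5.44, 11.4, 5.67, 18.9 and 7.497 CPM after exercise, with replicate 4 highest (log2 fold change 1.69 with SE of 0.29, adjusted p 0.00436). Without the libraries low in slow-fibre genes its value was 1.10 and the call was lost. The transcription elongation factor Ell2 rose by 1.19 (adjusted p 0.00968) and the autophagy receptor Optn by 0.42 (adjusted p 0.0453). Among receptors, Egfr (0.84), Fgfr3 (1.09) and the flagellin receptor Tlr5 (1.77) rose with adjusted p-values of 0.0456, 0.0453 and 0.00929; Egfr lost its call in each of the 10 fits without 1 library, Fgfr3 in 7 of the 10 fits without 1 library (adjusted p of up to 0.144, without resting replicate 5) and Optn in 8 of the 10 fits without 1 library (adjusted p of up to 0.139, without resting replicate 2). Of the rising genes 6 of 82 were not annotated as protein coding, against 13.3% of all genes tested that had an annotation.

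The genes that fell had a median of 12.02 CPM at rest, and 20 of the 27 met the rule for naming. Gm11266 stood at 5.22, 5.64, 5.89, 5.04 and 6.22 CPM at rest and 1.44, 2.28, 2.07, 2.27 and 1.87 CPM after exercise. Both groups were tight and far apart (log2 fold change -1.50 with SE of 0.17, adjusted p 5.56e-05). Gm43063 went from 12.02 ± 3.02 to 4.59 ± 1.41 CPM (log2 fold change -1.38 with SE of 0.20, adjusted p 8.14e-04). Both are noncoding genes inside introns, of Nfib and of Ampd1. Gm43063 is annotated as sense intronic, so that unspliced transcripts of Ampd1 can be counted in it. Gm11266 is annotated as antisense. If it lies opposite to Nfib, unspliced Nfib can be counted in it only if strand was not used.

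Vgll4, a cofactor that competes with YAP for TEAD factors, stood at 21.9, 20.2, 28.6, 30.3 and 33.6 CPM at rest and 14.9, 14.2, 10.4, 12.3 and 13.96 CPM after exercise, with resting replicates 1 and 2 nearest to the exercised group (log2 fold change -1.03 with SE of 0.21, adjusted p 0.0154). Its call was lost in 4 of the 10 fits without 1 library (adjusted p of up to 0.0613, without resting replicate 5). Fgf6, a fibroblast growth factor of skeletal muscle, fell from 6.17 ± 1.28 to 2.81 ± 0.673 CPM (log2 fold change -1.13 with SE of 0.26, adjusted p 0.03895), where exercised libraries held 19 to 34 counts, and its call was lost in 7 of the 10 fits without 1 library (adjusted p of up to 0.1295, without exercised replicate 4). Fat4, an atypical cadherin of the Hippo pathway, fell from 4.23 ± 1.02 to 1.67 ± 0.546 CPM (log2 fold change -1.32 with SE of 0.25, adjusted p 0.00929), and Arhgap18, a GTPase-activating protein, from 3.47 ± 0.812 to 1.49 ± 0.411 CPM (log2 fold change -1.22 with SE of 0.28, adjusted p 0.03895), the latter lost in 8 of the 10 fits without 1 library (adjusted p of up to 0.112, without resting replicate 5). Aqp7, a glycerol channel, fell from 8.02 ± 1.99 to 4.22 ± 0.864 CPM (log2 fold change -0.93 with SE of 0.22, adjusted p 0.0405), lost in 9 of the 10 fits without 1 library (adjusted p of up to 0.145, without resting replicate 1). A row whose symbol had been turned into the date Sep-04 fell from 6.07 ± 1.06 to 2.69 ± 0.3903 CPM (log2 fold change -1.17 with SE of 0.21, adjusted p 0.00749) and Gm16008 from 3.38 ± 0.528 to 1.63 ± 0.449 CPM (log2 fold change -1.04 with SE of 0.23, adjusted p 0.0285), the latter lost in 7 of the 10 fits without 1 library (adjusted p of up to 0.0954, without resting replicate 5).

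Some further falls, picked after their values were seen, are given for what their products do. Fzd7, a Wnt receptor, stood at 66.7, 53.8, 85.6, 80.6 and 84.5 CPM at rest and 47.6, 41.2, 40.97, 28.04 and 49.8 CPM after exercise, with separate groups (log2 fold change -0.84 with SE of 0.15, adjusted p 0.00586). Cxxc5, a protein that binds Dishevelled, fell from 19.8 ± 5.98 to 10.4 ± 2.26 CPM (log2 fold change -0.91 with SE of 0.19, adjusted p 0.0151). The ligand gene Wnt10b had 6, 18, 12, 5 and 6 counts at rest and 0, 1, 1, 2 and 3 counts after exercise (adjusted p 0.01196), too few for a fold. Other falls were those of the SUMO-activating subunit Uba2 (-0.43, adjusted p 0.00921), the ceramide synthase Cers2 (-0.43, adjusted p 0.0336) and the semaphorin Sema6c (-0.45, adjusted p 0.0319). Cers2 lost its call in 7 of the 10 fits without 1 library (adjusted p of up to 0.121, without resting replicate 1), Sema6c in 5 of the 10 fits without 1 library (adjusted p of up to 0.109, without resting replicate 4) and Cxxc5 in 3 of the 10 fits without 1 library (adjusted p of up to 0.0626, without resting replicate 5).

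Genes of interferon response and antigen presentation had lower fitted values throughout. Of 17 in the list 16 were tested, all 16 had negative values under each of 4 scalings, and the median was -0.48 against 2.59e-05 over all genes. A single member, Cd274, was called, which is the checkpoint ligand PD-L1. It stood at 2.44, 3.22, 3.68, 4.92 and 2.11 CPM at rest and 1.13, 0.569, 0.981, 0.647 and 1.499 CPM after exercise, with 5 to 16 counts per exercised library and separate groups (log2 fold change -1.73 with SE of 0.33, adjusted p 0.00891). The call was kept in each fit without 1 library and lost without the libraries low in slow-fibre genes (adjusted p 0.102). The immunoproteasome genes Psmb9 (-1.39, adjusted p 0.291) and Psmb8 (-1.01, adjusted p 0.114), the peptide transporter Tap1 (-0.92, adjusted p 0.3795) and the guanylate-binding protein Gbp2 (-0.89, adjusted p 0.112) were not called.

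Outside the list, Uba7, the activating enzyme of the ubiquitin-like protein ISG15, stood at 2.67, 3.76, 3.43, 4.06 and 3.78 CPM at rest and 1.23, 0.9103, 1.09, 1.402 and 2.25 CPM after exercise. The groups were separate, as the naming rule required (log2 fold change -1.34 with SE of 0.26, adjusted p 0.01196). Gbp5, another guanylate-binding protein, fell from 2.79 ± 1.11 to 1.13 ± 0.255 CPM with overlapping groups (log2 fold change -1.30 with SE of 0.30, adjusted p 0.0393), a call lost in 9 of the 10 fits without 1 library (adjusted p of up to 0.148, without resting replicate 2). The 5 macrophage markers summed to 18.45 to 37.53 CPM at rest and 19.57 to 39.55 CPM after exercise, the 5 lymphocyte markers to 0.58 to 2.332 and 0.8434 to 2.157 CPM, and the 5 endothelial markers to 111.2 to 151.6 and 72.6 to 133.9 CPM; none of their tested members was called. Of the 5 neutrophil markers, none had more than 3 counts in a vehicle library, and Ly6g and Cxcr2 were at 0 in all 10. The part of such cells in these values was not tested.

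The order of the exercised libraries was uneven. Replicate 4 was the highest of the 5 for 39 of the 82 rising genes and replicate 5 the lowest for 43. The order differed between groups of genes: replicate 1 was highest for 4 of 7 heat shock genes and replicate 2 for both metallothioneins, while replicate 5 was lowest for 3 of 4 AP-1 genes and for all 3 NR4A genes. Among the 27 falling genes replicate 5 was highest, that is, least lowered, for 10, and replicate 2 lowest for 11. Exercised replicate 4 also had the highest marker sums of the 10 vehicle libraries for blood (366.4 CPM, against 57.69 to 286.8 in the others), fat (88.77 CPM, against 5.437 to 53.83) and nerve (87.26 CPM, against 10.01 to 57.21). Exercised replicate 5 stood at 253.6, 7.122 and 28.58 CPM. The part of these cells in the order was not tested. Without exercised replicate 4 there were 55 calls and without exercised replicate 5 there were 135.

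The exercise response of knockout-labelled muscle was set beside that of vehicle to see where they differ. In that background none of 13560 genes was called (0%) by edgeR, none by DESeq2 and none by limma-voom, and 639 had an unadjusted p under 0.05. The descriptions of its exercised samples say trained where their titles say acute exercise. In the samples labelled knockout the counts of the targeted gene Arntl were not lower: the resting level was 12.3 ± 2.39 CPM with vehicle and 14.5 ± 1.94 CPM with the knockout label. Counts are summed over the gene and the labels do not say which exon is floxed, so this level does not check the deletion. The test of the difference between both responses called none of 13560 genes (0%) by edgeR, none by limma-voom and 3 by DESeq2, with 791 at an unadjusted p under 0.05. The 3 DESeq2 calls were Sik1, Nfil3 and the mitochondrial ribosome gene Mrps6, all with a smaller rise in knockout-labelled muscle (adjusted p 0.00351, 0.00351 and 0.0227).

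For Nfil3 the response was 1.72 (SE 0.17) in vehicle and 0.47 (SE 0.17) in knockout-labelled muscle, a difference of -1.25 (SE 0.24, edgeR adjusted p 0.275, the lowest among the 109 genes). Mean Nfil3 went from 29.4 to 96.6 CPM in vehicle and from 75.98 to 105 CPM in knockout-labelled muscle. Its resting levels thus differed more between the backgrounds than its exercised levels. Mean Sik1 went from 11.4 to 78.1 CPM in vehicle and from 16.1 to 28.3 CPM in knockout-labelled muscle. For Sik1 the responses were 2.77 and 0.82 (difference -1.95, SE 0.41, adjusted p 0.595), for Mt2 3.02 and 0.50 (-2.53, SE 0.72, adjusted p 0.717), and for Nr4a2 4.97 and 2.48 (-2.49, SE 0.89, adjusted p 0.779). Over the 109 genes the adjusted p of the difference ran from 0.275 to 0.977, so no difference between the backgrounds passed the edgeR test. Since the named genes were chosen by their response in vehicle, their smaller values in knockout-labelled muscle are a description.

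**Figure D5:**
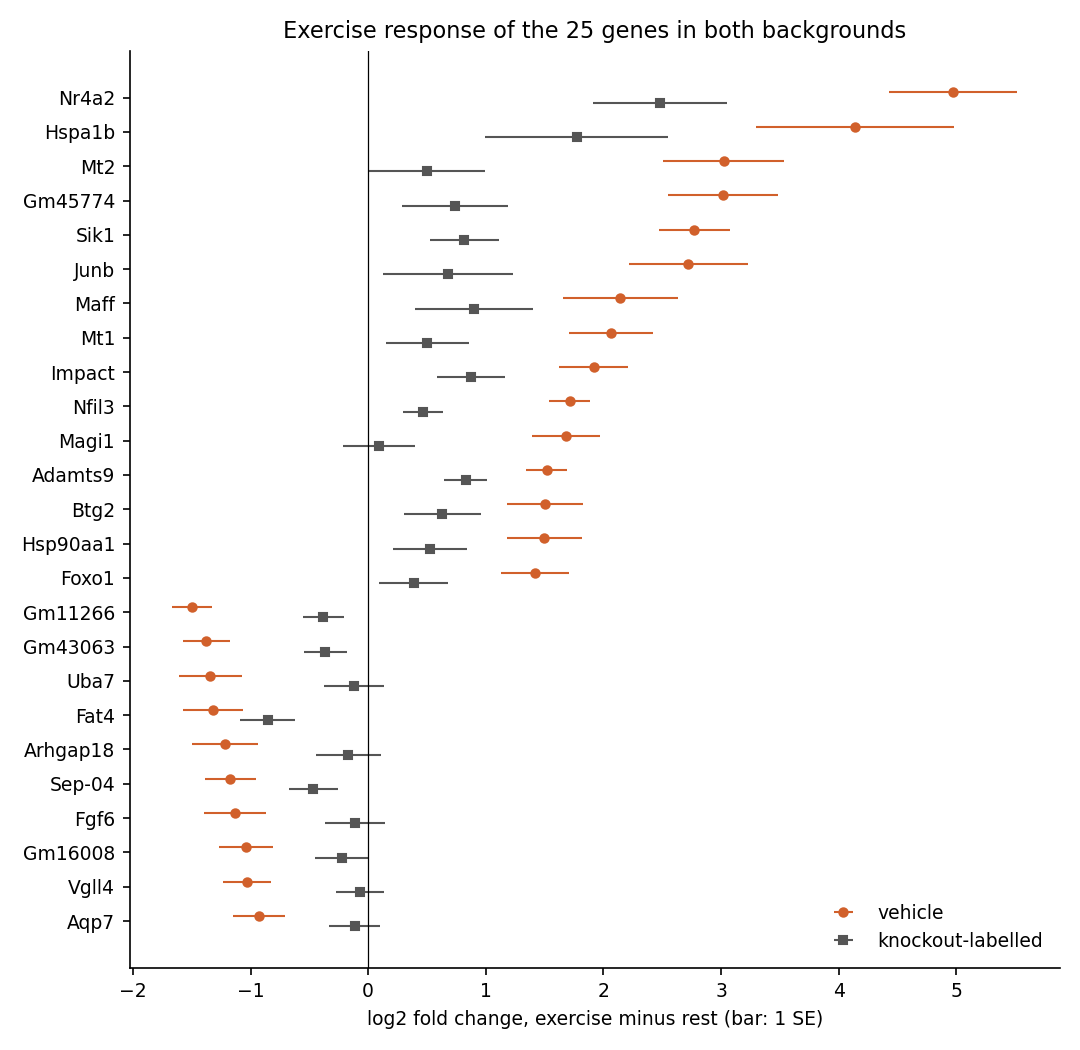
Log2 fold change, exercise minus rest, of the 15 largest rises and 10 largest falls in vehicle (circles) and in knockout-labelled muscle (squares), with bars of 1 SE. The genes were chosen in vehicle; all 25 have the same sign in both backgrounds and none differs between them at an edgeR adjusted p under 0.05.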

How the data were processed

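RNA was measured by sequencing in 20 gastrocnemius libraries, 4 groups of 5. The deposited table holds whole-number counts per gene symbol for each library, which the authors made with STAR 2.7.8a, Partek and DESeq2 among their tools, per the submitters' processing notes. These notes name both mm10 and GRCm39 without saying which build served which step, so no gene coordinates other than those of the RefSeq promoter windows are given. Whether the counting used strand is not given in the sources used here. RNA was extracted with Trizol and a column kit, per the labels' protocols.

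From the counts, genes were kept by edgeR's filterByExpr (minimum count 10), scaled by TMM and fitted with robust quasi-likelihood models (R 4.3.3, edgeR 4.0.16, limma 3.58.1) over all 20 libraries with 1 mean per group and 16 residual degrees of freedom. The 13560 genes kept held 99.83% of the counts. Genes were called at a Benjamini-Hochberg adjusted p under 0.05 over all genes tested, and every adjusted p is from this test unless another tool is named. The SE is the absolute log2 fold change divided by the square root of F. Levels are CPM, counts per library total of 1000000, with TMM scaling, given by library or as mean ± SD with n = 5. Overlap between groups was judged on log2 CPM with a prior count of 2. Total counts of 8057859 to 10814630 per vehicle library set the precision of low genes. No pair of libraries agreed within sampling noise, and no table column was left unmapped.

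The named genes are the 15 largest rises and 10 largest falls among called genes with a mean log2 CPM of at least 1 over the vehicle libraries and ranges that do not overlap, plus list members. The genes described and the 21 pathway and 13 marker lists were chosen with earlier results of these data known. A list is described by counts and a median, with no test. Exon and intron overlaps came from the GENCODE M21 annotation, and promoters from RefSeq. Counts for 13400 genes were simulated from the mean levels and dispersions of all 20 libraries. Changes were placed in the vehicle exercise group, only in genes with a mean above 2 CPM. Of these, 77.1% of 109 genes changed by 1 and 96.7% of 91 genes changed by 2 on the log2 scale were recovered. Of 181 calls, 4.97% were false. Differences between libraries that many genes share, as in slow-fibre genes, were not simulated, so these shares need not hold for lower genes or the real libraries. Other scalings, filters, tools (DESeq2 1.42.0, limma-voom), thresholds, a replicate block, a slow-fibre covariate and fits without 1 library were tried as alternatives. The fit without the libraries low in slow-fibre genes (a mean log2 CPM of the 8 markers under 5) was added after seeing the data.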

Additional observations from a re-analysis of the deposited data

Results flagged for a closer look

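The 25 named genes and the other called list members were examined for a library standing apart. Total count, mitochondrial share of counts and slow-fibre score were examined too. Of these 98 groups of 5 libraries, 4 held one by Dixon's criterion (gap over range above 0.71), a share that chance gives in about 1 of 20 groups. For Arhgap18, resting replicate 3 was lowest at 1.203 log2 CPM, with the next at 1.873 (gap over range 0.736), which is toward the exercised level. For Pde4d, exercised replicate 1 was lowest at 7.497 log2 CPM, with the next at 7.771 (0.713), and it still lay above every resting library. For Cdkn1a, resting replicate 1 was lowest at 2.21 log2 CPM, with the next at 2.735 (0.779). For Klf15, resting replicate 3 was highest at 5.723 log2 CPM, with the next at 5.428 (0.726), inside the exercised range.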

How the results depend on the processing

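All 109 called genes kept their direction in each of the 23 refits of the vehicle comparison that could be made for them (2504 values), and 699 of these values no longer passed the threshold. The number of calls was 109 and became 195 with DESeq2, 248 with the slow-fibre covariate, 61 with only the groups of the contrast in the fit (49 of them shared), 42 at an adjusted p under 0.01, 52 with a change of at least 1 in either direction on the log2 scale, and 14 without the 3 libraries low in slow-fibre genes. Other scalings, filters, limma-voom and leaving out mitochondrial genes gave 78 to 112. Leaving out 1 library gave 52 to 135 calls: 62, 57, 58 and 52 without resting replicates 1, 2, 4 and 5, and 68 and 55 without exercised replicates 3 and 4. The cause was not tested. In knockout-labelled muscle the count was 0 by each alternative except the covariate, with 8 genes, all higher. The difference between the responses gave 0 calls except 3 with DESeq2 and, without 1 library, 0 to 1, the single call being Nfil3 without knockout-labelled resting replicate 3 (-1.36, adjusted p 0.0385). It could not be computed with only the groups of 1 contrast in the fit. Same-numbered vehicle libraries shared no pairing by the labels, and their deviations correlated at 0.271, -0.448, 0.132, 0.198 and 0.0451, with 1 of 5 correlating best with its own number; with the replicate block 100 genes were called, 87 of them among the 109. The replicate block gave 0 calls in knockout-labelled muscle and 0 for the difference between responses. Upper quartile and library size scaling moved the median of all genes to -0.0225 and -0.0284, so lists with medians near 0 changed their number of positive values by up to 3. Counts of 3 or fewer per library, as for Wnt10b after exercise, limit the fold that can be measured.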
